A study of Mus musculus with 11 samples.

Results

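The genes described here are 46 genes of DNA replication and of the supply of its nucleotide building blocks, measured in mouse liver. They were picked by name from what is known of the replication machinery, with earlier results of these data already known. Each was represented by a probe set whose annotation held exactly 1 gene symbol. Where a gene had several, the one with the highest mean signal was used. All 46 were measured, of 19938 genes with such a probe set, and only Pcna and Tk1 had a second one. The study compared livers of male C57/BL6 mice aged 8 to 9 weeks and fed chow, with 1 Affymetrix whole-transcript array per RNA sample. In the 3 Nemo/TNFR1 dKO samples Nemo is deleted in hepatocytes and TNFR1 is missing from all cells. In the 2 Nemo/TRAIL dKO samples Nemo is deleted in hepatocytes and TRAIL is missing from all cells. The 3 Nemo KO samples carry the hepatocyte deletion alone (NemoΔhepa, made from a loxP-flanked Nemo gene), and 3 samples are labelled wild type (WT). The sources used here give neither the promoter that drives the recombinase nor whether WT mice were littermates. Nemo is the regulatory subunit of the kinase that activates NF-κB, TRAIL is a death ligand, and TNFR1 is a receptor for tumour necrosis factor.

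Before a cell copies its DNA, the origin recognition complex, Cdc6 and Cdt1 load the ring of Mcm2 to Mcm7 onto origins, a step called licensing, and geminin (Gmnn) blocks its repetition. Cdc45, the GINS complex and Mcm10 then turn the loaded ring into an active helicase, DNA polymerases copy the strands behind it, and the sliding clamp, its loader, flap endonuclease and ligase complete them. Ribonucleotide reductase, thymidylate synthase, thymidine kinase and dUTPase supply the deoxynucleotides, and chromatin and its methylation are restored behind the fork. Hepatocytes of an adult liver are mostly quiescent but can re-enter the cell cycle after injury or loss of tissue. Many replication genes are known targets of the E2F transcription factors.

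Promoter stretches of 7 of the genes are shown because they span the range of the results: Mcm6 and Mcm5 were called higher in all 3 Nemo-deficient genotypes, Cdc6 and Pola1 in Nemo/TNFR1 dKO and Nemo KO only, Orc1 in none, and Rrm2 and Mcm10 had the largest difference up and down without holding the searched word. Each stretch is the 170 bases before the annotated start in RefSeq, build GRCm38.p6, 5′ to 3′ on the strand of the gene, and capitals mark E2F-type words. The words searched on both strands were TTTCCCGC, TTTCGCGC, TTTGCCGC and TTTGGCGC, and overlapping matches were kept. The stretches are chr1:128359706-128359875 (minus strand) for Mcm6, chr8:75109339-75109508 (plus strand) for Mcm5, chr11:98907981-98908150 (plus strand) for Cdc6 and chrX:93632156-93632325 (minus strand) for Pola1. Those of Orc1, Rrm2 and Mcm10 are chr4:108579284-108579453 (plus strand), chr12:24708084-24708253 (plus strand) and chr2:5012792-5012961 (minus strand).
Mcm6: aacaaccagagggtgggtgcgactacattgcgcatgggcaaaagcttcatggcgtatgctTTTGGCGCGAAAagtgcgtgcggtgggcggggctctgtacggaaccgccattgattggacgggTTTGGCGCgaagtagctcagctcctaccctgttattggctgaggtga
Mcm5: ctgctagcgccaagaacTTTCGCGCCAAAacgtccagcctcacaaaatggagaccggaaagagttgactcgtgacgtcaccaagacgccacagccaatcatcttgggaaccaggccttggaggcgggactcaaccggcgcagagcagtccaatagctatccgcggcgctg
Cdc6: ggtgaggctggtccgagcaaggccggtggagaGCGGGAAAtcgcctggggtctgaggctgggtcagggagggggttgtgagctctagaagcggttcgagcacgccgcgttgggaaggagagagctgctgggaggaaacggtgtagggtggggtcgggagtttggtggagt
Pola1: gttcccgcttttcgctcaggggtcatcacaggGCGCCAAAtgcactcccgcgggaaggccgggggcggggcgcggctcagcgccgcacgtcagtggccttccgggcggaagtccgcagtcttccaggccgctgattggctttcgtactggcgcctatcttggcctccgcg
Orc1: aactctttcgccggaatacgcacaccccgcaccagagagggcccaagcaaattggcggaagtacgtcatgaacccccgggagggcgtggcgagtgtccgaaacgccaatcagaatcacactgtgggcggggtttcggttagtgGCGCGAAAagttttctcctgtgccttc
Rrm2: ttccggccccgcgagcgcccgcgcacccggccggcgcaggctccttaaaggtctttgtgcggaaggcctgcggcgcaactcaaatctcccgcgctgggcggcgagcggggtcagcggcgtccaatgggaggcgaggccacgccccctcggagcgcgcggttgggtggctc
Mcm10: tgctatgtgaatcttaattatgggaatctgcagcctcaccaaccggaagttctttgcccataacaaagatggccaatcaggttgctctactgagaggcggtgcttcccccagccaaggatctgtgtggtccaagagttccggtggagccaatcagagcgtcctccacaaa

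RefSeq promoter windows of 250 bases before to 50 bases after the start were used for 37 of the 46 genes, and Exo1, Gins1, Gins2, Gins4, Gmnn, Mcm4, Pole, Prim2 and Rfc2 had none in the table used. An E2F-type word was in a window of 16 of the 37 genes (43.2%), against 2.6% of 27025 genes with a window. Counted by single windows, it was in 16 of the 45 windows of these genes, against 2.26% of 32851 over the whole table. The genes compared were not matched for base composition. The Mcm6 window held 3 such words, of which the first 2 overlap, and the Mcm5 window held 2 overlapping words. Among genes called higher in all 3 Nemo-deficient genotypes the word was in 9 of 18, and among genes called in none of them it was in 4 of 10. The word CCAAT was in 23 of the 37 genes (62.2%), against 41.1% of all genes. The word GGGCGG was in 27 of the 37 (73.0%), against 38.2% of all genes. These are matches of letters within the windows, and binding was not measured.

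The deposited values are log2 expression levels, so a difference of 1 is a doubling, and levels are compared here only within a probe set. WT replicate 3 stood apart in 8 pancreatic acinar markers, whose mean was 11.67 there and between 5.58 and 6.003 on the other 10 arrays. Hepatocyte markers (7 measured, among them Alb, Ttr and Cps1) had no called difference from WT in any of the 3 Nemo-deficient genotypes, and their mean lay between 13.22 and 13.32 on the 8 Nemo-deficient arrays and between 13.30 and 13.34 on the 3 WT arrays. Whole-transcript signals of the targeted genes lay close together: Ikbkg, the Nemo gene, lay between 8.12 and 8.31 in Nemo/TNFR1 dKO, 8.22 and 8.28 in Nemo/TRAIL dKO, 8.34 and 8.56 in Nemo KO and 8.60 and 8.73 in WT livers. Tnfsf10, the TRAIL gene, lay between 6.11 and 6.23 in Nemo/TRAIL dKO and between 6.26 and 6.86 in Nemo KO livers. Tnfrsf1a, the TNFR1 gene, lay between 9.95 and 10.19 in Nemo/TNFR1 dKO, between 10.19 and 10.41 in Nemo KO and between 9.93 and 10.09 in WT livers. The sources used here do not place the deletions relative to the probes, so these levels check the labels only weakly, and groups are called as labelled. A code in the names of the arrays is common to WT and Nemo KO and differs in both double knockouts. Its meaning is not stated, and it cannot be told apart from genotype wherever a double knockout is compared.

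The listed replication genes were mostly higher in Nemo KO than in WT livers, across most steps of the process. Of the 46 genes 25 were called higher and 1, Mcm10, was called lower (limma, adjusted p below 0.05 over all 35556 probe sets). Of all probe sets 6.08% were called higher and 3.21% lower. The median log2 difference of the 46 genes was 0.41, against -0.05 over all probe sets, and 42 of the 46 lay above 0, as did 38.2% of all probe sets. In 33 of the 46 genes each Nemo KO array lay above each WT array, as in 12.8% of all probe sets. Licensing genes had 8 of 11 called higher, helicase activation genes 2 of 6, polymerase and primase genes 4 of 8, clamp, RPA, flap and ligase genes 5 of 9, nucleotide supply genes 2 of 5, chromatin genes 4 of 4 and repair genes 0 of 3. The calls of 16 genes upwards and of Mcm10 downwards held in all 11 fits that left out 1 array each. Without Nemo KO replicate 3 the count of called genes was 17 instead of 26, and without WT replicate 3 it was 22. RNA was taken from whole liver, so a higher level in all cells and more cells in cycle cannot be told apart.

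**Figure D1:**
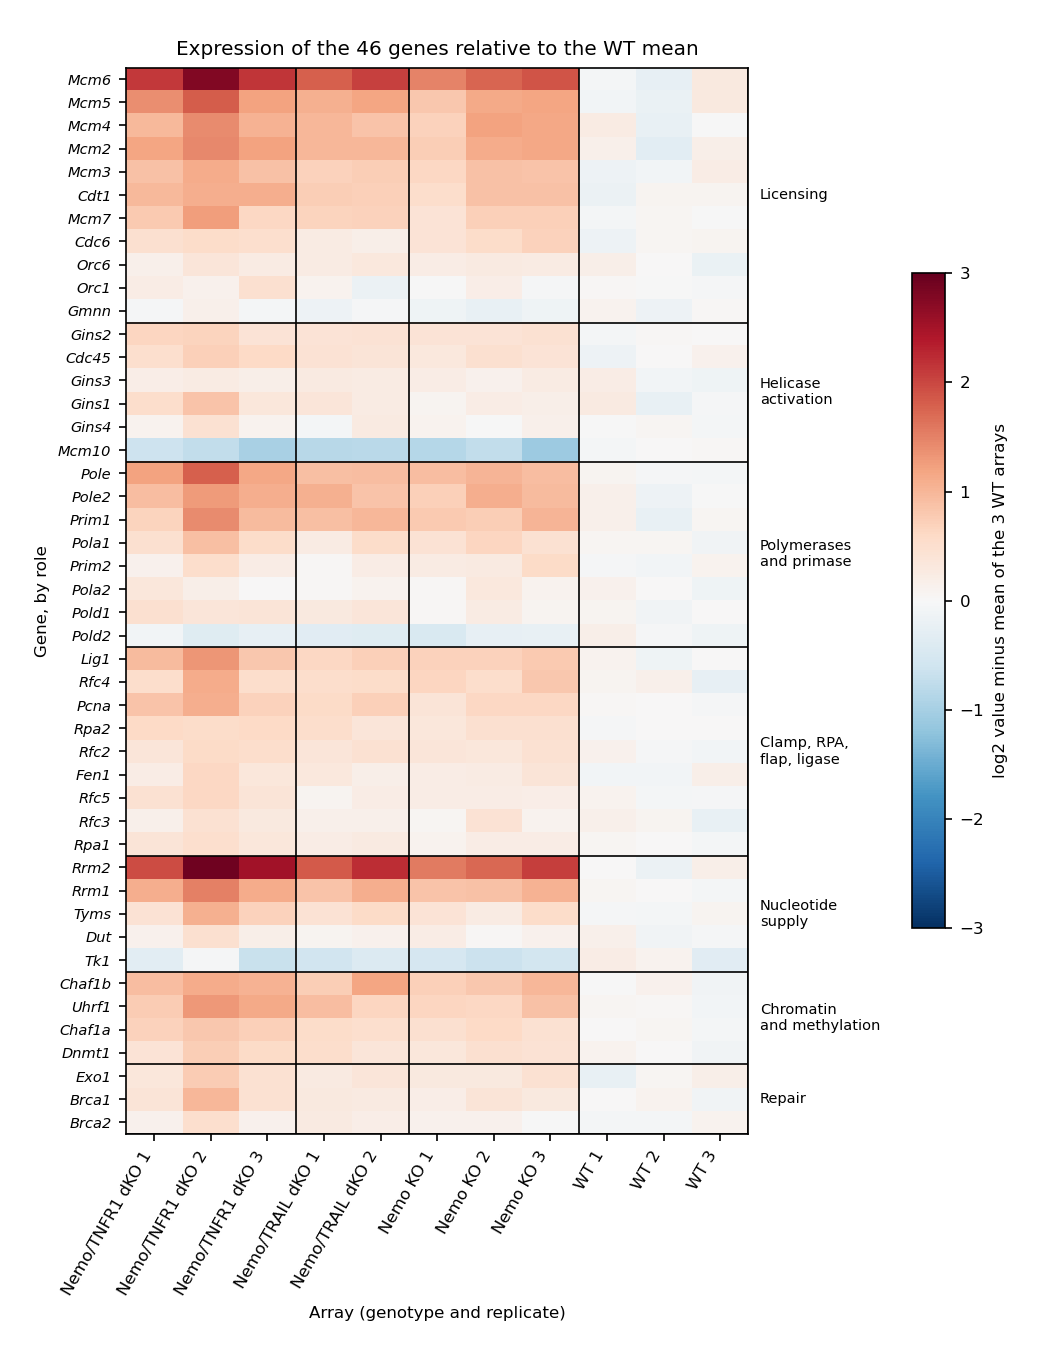
Log2 value of each of the 46 genes (rows, by role) on each of the 11 arrays (columns, by genotype and replicate) minus the mean of the 3 WT arrays, with red above and blue below the WT mean. Most rows are red on the 8 Nemo-deficient arrays, most deeply Mcm6 and Rrm2, and Mcm10 is blue on all 8.

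All 6 genes of the helicase ring were called higher in each Nemo-deficient genotype. In Nemo/TRAIL dKO the Mcm7 call was lost without any 1 of the 3 WT arrays, and that of Mcm4 without WT replicate 2. Mcm6, a ring subunit, had log2 levels of 8.08, 8.76 and 8.12 in Nemo/TNFR1 dKO, 7.77 and 8.02 in Nemo/TRAIL dKO, 7.46, 7.71 and 7.85 in Nemo KO, and 5.92, 5.73 and 6.27 in WT livers. All 8 Nemo-deficient arrays lay above all WT arrays, by more than 1 log2 unit. The log2 difference of Mcm6 from WT was 2.35 ± 0.20 (SE) in Nemo/TNFR1 dKO (adjusted p = 0.000378), 1.92 ± 0.23 in Nemo/TRAIL dKO (0.00158) and 1.70 ± 0.20 in Nemo KO (0.00116), which is 5.10-, 3.79- and 3.26-fold. Mcm5, another ring subunit, had 8.54, 8.96 and 8.34 in Nemo/TNFR1 dKO, 8.19 and 8.33 in Nemo/TRAIL dKO, 7.94, 8.29 and 8.31 in Nemo KO, and 7.05, 6.95 and 7.42 in WT livers. Its groups did not overlap with WT either, and its differences were 1.48 ± 0.18 (adjusted p = 0.00136), 1.12 ± 0.20 (0.00952) and 1.04 ± 0.18 (0.0066) in the same order of genotypes. For the other subunits the log2 difference of Mcm2 was 1.28, 0.99 and 1.01, that of Mcm3 0.96, 0.71 and 0.79, that of Mcm4 1.15, 0.92 and 1.03 and that of Mcm7 0.89, 0.68 and 0.62 in Nemo/TNFR1 dKO, Nemo/TRAIL dKO and Nemo KO.

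The factors that load the ring were called in part. Cdt1, a loading factor, was called higher in all 3 genotypes, by 1.05 in Nemo/TNFR1 dKO, 0.73 in Nemo/TRAIL dKO and 0.76 in Nemo KO. Cdc6, the loading ATPase, had 5.82, 5.89 and 5.84 in Nemo/TNFR1 dKO, 5.58 and 5.52 in Nemo/TRAIL dKO, 5.75, 5.88 and 6.03 in Nemo KO, and 5.20, 5.39 and 5.43 in WT livers. It was called higher in Nemo/TNFR1 dKO (0.51 ± 0.09, adjusted p = 0.00594) and Nemo KO (0.55 ± 0.09, adjusted p = 0.00445), and the Nemo/TRAIL dKO arrays lay between those and WT (0.21 ± 0.10, adjusted p = 0.249). Orc1, the largest subunit of the origin recognition complex, had 4.11, 4.005 and 4.35 in Nemo/TNFR1 dKO, 3.98 and 3.70 in Nemo/TRAIL dKO, 3.86, 4.07 and 3.84 in Nemo KO, and 3.91, 3.88 and 3.86 in WT livers. This signal lay at the 14.5th percentile of all probe sets, and no comparison with WT was called (adjusted p = 0.165, 0.894 and 0.824 in Nemo/TNFR1 dKO, Nemo/TRAIL dKO and Nemo KO). Orc6, another subunit of that complex, differed from WT by 0.25, 0.28 and 0.24 without a call, and Gmnn by 0.02, -0.09 and -0.16 without a call. Of the licensing calls only that of Mcm7 was unstable in Nemo KO: it was lost without any 1 of the 3 WT arrays or Nemo KO replicate 2 or 3, with an adjusted p of up to 0.112.

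In fits to all arrays and probe sets as deposited, helicase activation held the only gene called lower by its chosen probe set. Mcm10, which binds the loaded ring as it is activated, had log2 levels of 7.17, 7.06 and 6.82 in Nemo/TNFR1 dKO, 6.97 and 6.99 in Nemo/TRAIL dKO, 6.93, 7.06 and 6.71 in Nemo KO, and 7.74, 7.81 and 7.84 in WT livers. Every Nemo-deficient array lay below every WT array. The log2 difference was -0.78 ± 0.11 in Nemo/TNFR1 dKO (adjusted p = 0.00235), -0.82 ± 0.12 in Nemo/TRAIL dKO (0.00411) and -0.90 ± 0.11 in Nemo KO (0.0012), and the call held in all 11 fits that left out 1 array. Gins2, a GINS subunit, had 7.55, 7.59 and 7.33 in Nemo/TNFR1 dKO, 7.33 and 7.35 in Nemo/TRAIL dKO, 7.33, 7.33 and 7.36 in Nemo KO, and 6.87, 6.96 and 6.92 in WT livers. It was called higher in all 3 genotypes, by 0.58 ± 0.07 (adjusted p = 0.00172), 0.43 ± 0.08 (0.013) and 0.43 ± 0.07 (0.0066). Cdc45, the other partner of the active helicase, was called higher by 0.60, 0.41 and 0.40. Its Nemo KO call was lost without WT replicate 1 or 2 or Nemo KO replicate 2 or 3 (adjusted p up to 0.0936). Its Nemo/TRAIL dKO call was also lost in fits without WT replicate 1 or 2.

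The remaining GINS subunits were not called in Nemo KO. Gins4 had 8.79, 9.15 and 8.79 in Nemo/TNFR1 dKO, 8.63 and 8.97 in Nemo/TRAIL dKO, 8.79, 8.69 and 8.85 in Nemo KO, and 8.69, 8.76 and 8.63 in WT livers, with a difference of 0.09 ± 0.12 between Nemo KO and WT (adjusted p = 0.693). The Nemo KO and WT arrays overlapped. Gins3 differed by 0.21, 0.26 and 0.20 from WT without a call in Nemo/TNFR1 dKO, Nemo/TRAIL dKO and Nemo KO. Gins1 was called in Nemo/TNFR1 dKO alone (0.58 ± 0.15, adjusted p = 0.0368), a call that survived 2 of 11 fits lacking 1 array, with an adjusted p of up to 0.115 in the others. All 4 GINS proteins form 1 complex, and 1 of the 4 was called higher in Nemo KO livers.

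**Figure D2:**
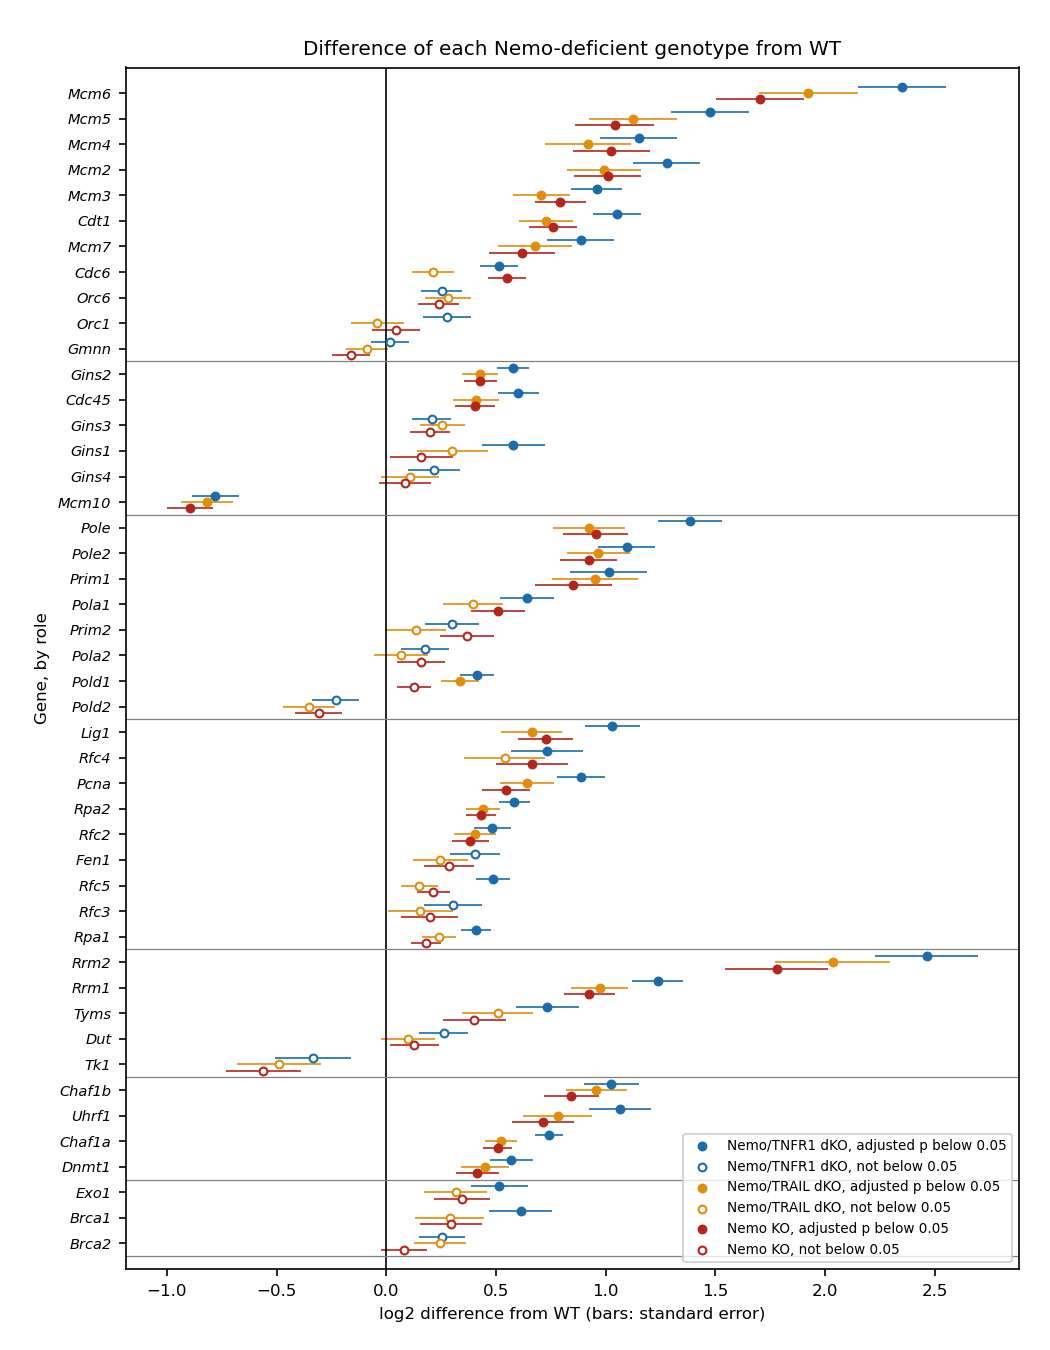
Log2 difference from WT (horizontal axis, bars are standard errors) of each of the 46 genes in the 3 Nemo-deficient genotypes, with filled points at an adjusted p below 0.05 and horizontal lines between role groups. Rrm2 and Mcm6 lie farthest to the right, and Mcm10 lies to the left of 0 with filled points in all 3 genotypes.

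Both subunits on the list of polymerase epsilon, which copies the leading strand, were called higher in each Nemo-deficient genotype. Its catalytic subunit Pole had 6.67, 7.27 and 6.63 in Nemo/TNFR1 dKO, 6.38 and 6.40 in Nemo/TRAIL dKO, 6.39, 6.48 and 6.40 in Nemo KO, and 5.55, 5.45 and 5.41 in WT livers. The WT arrays lay apart from all others, and the differences were 1.38 ± 0.15 (adjusted p = 0.000827), 0.92 ± 0.16 (0.00973) and 0.95 ± 0.15 (0.00398) in Nemo/TNFR1 dKO, Nemo/TRAIL dKO and Nemo KO. Pole2, the second subunit of that polymerase, had 6.03, 6.38 and 6.19 in Nemo/TNFR1 dKO, 6.18 and 5.97 in Nemo/TRAIL dKO, 5.82, 6.20 and 6.07 in Nemo KO, and 5.26, 4.96 and 5.10 in WT livers. It was called higher by 1.09, 0.97 and 0.92 (adjusted p = 0.00123, 0.00449 and 0.00248).

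Polymerase delta, which copies the lagging strand, had smaller differences. Its catalytic subunit Pold1 had 7.23, 7.11 and 7.14 in Nemo/TNFR1 dKO, 7.05 and 7.12 in Nemo/TRAIL dKO, 6.79, 6.997 and 6.84 in Nemo KO, and 6.84, 6.64 and 6.76 in WT livers. Both double knockouts lay above WT without overlap, while Nemo KO overlapped with it: the difference was 0.41 ± 0.08 in Nemo/TNFR1 dKO (adjusted p = 0.0103), 0.34 ± 0.09 in Nemo/TRAIL dKO (0.0473) and 0.13 ± 0.08 in Nemo KO (0.346). The Nemo/TRAIL dKO call survived 1 of 11 fits lacking 1 array (without Nemo KO replicate 2), with an adjusted p of up to 0.212 in the others. Pold2, its accessory subunit, differed from WT by -0.23, -0.35 and -0.31 without a call (adjusted p = 0.232, 0.117 and 0.109).

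The polymerase alpha and primase complex, which lays down primers, was called in part. Prim1, the catalytic primase subunit, was called higher by 1.01, 0.95 and 0.85 in Nemo/TNFR1 dKO, Nemo/TRAIL dKO and Nemo KO, and its Nemo KO call was lost without WT replicate 2 or Nemo KO replicate 3 (adjusted p up to 0.0631). Prim2, the large primase subunit, had 6.93, 7.32 and 7.03 in Nemo/TNFR1 dKO, 6.83 and 7.03 in Nemo/TRAIL dKO, 7.05, 7.08 and 7.37 in Nemo KO, and 6.77, 6.72 and 6.91 in WT livers. No difference of Prim2 from WT was called (0.30, 0.13 and 0.37, adjusted p = 0.184, 0.64 and 0.0998). Pola1, the catalytic subunit of polymerase alpha, was called in Nemo/TNFR1 dKO (0.64) and Nemo KO (0.51) but not in Nemo/TRAIL dKO (0.39, adjusted p = 0.13). Its Nemo KO call was lost without any 1 of the 3 WT or 3 Nemo KO arrays, with an adjusted p of up to 0.112. Pola2, its accessory subunit, differed by 0.18, 0.07 and 0.16 without a call.

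Of the genes for the clamp, single-strand binding and strand completion, the ligase differed most. Lig1, which seals Okazaki fragments, had log2 levels of 7.06, 7.44 and 6.90 in Nemo/TNFR1 dKO, 6.72 and 6.81 in Nemo/TRAIL dKO, 6.79, 6.80 and 6.89 in Nemo KO, and 6.21, 5.98 and 6.12 in WT livers. It was called higher in all 3 genotypes without overlap with WT, by 1.03 ± 0.12 (adjusted p = 0.00136), 0.66 ± 0.14 (0.0195) and 0.73 ± 0.12 (0.00662). Rfc4, a subunit of the clamp loader, had 7.98, 8.56 and 7.98 in Nemo/TNFR1 dKO, 7.98 and 7.98 in Nemo/TRAIL dKO, 8.08, 7.98 and 8.26 in Nemo KO, and 7.53, 7.59 and 7.21 in WT livers. Calls were made in Nemo/TNFR1 dKO (0.73 ± 0.16, adjusted p = 0.0231) and Nemo KO (0.66 ± 0.16, adjusted p = 0.035), and the Nemo/TRAIL dKO difference of 0.54 ± 0.18 was uncalled (adjusted p = 0.122). The Nemo KO call of Rfc4 survived 3 of 11 fits lacking 1 array, those without a Nemo/TNFR1 dKO array, and its adjusted p reached 0.122 in the others. The Nemo/TNFR1 dKO call was lost without WT replicate 3 (adjusted p = 0.0683).

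Pcna, the sliding clamp itself, lies outside the rule for genes shown in full and is given because it is the usual marker of S phase. It had 10.29, 10.52 and 10.12 in Nemo/TNFR1 dKO, 9.998 and 10.14 in Nemo/TRAIL dKO, 9.80, 10.05 and 10.06 in Nemo KO, and 9.46, 9.43 and 9.38 in WT livers. It was called higher in all 3 genotypes, by 0.89, 0.64 and 0.54, and its Nemo KO call was lost without Nemo KO replicate 2 or 3 (adjusted p up to 0.0591). Its second probe set differed by 0.91, 0.66 and 0.57 from WT, with a call in each, but by the order of probe set numbers it lies among those of chromosome 19 while the gene is on chromosome 2, so which sequence it reads is uncertain. Rpa1, the large subunit of the single-strand binding protein RPA, had 8.28, 8.40 and 8.23 in Nemo/TNFR1 dKO, 8.11 and 8.16 in Nemo/TRAIL dKO, 8.00, 8.11 and 8.11 in Nemo KO, and 7.95, 7.90 and 7.83 in WT livers. All Nemo-deficient arrays lay above all WT arrays, but only the Nemo/TNFR1 dKO difference was called (0.41 ± 0.07, adjusted p = 0.00579), with 0.24 ± 0.08 in Nemo/TRAIL dKO (0.0998) and 0.18 ± 0.07 in Nemo KO (0.144).

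The rest of this group gave smaller differences. Rpa2, the middle subunit of RPA, was called higher in all 3 genotypes, by 0.58, 0.44 and 0.43. Rfc2, a loader subunit, was called higher by 0.48, 0.40 and 0.38, and lost its Nemo KO call without WT replicate 2 or 3 or any 1 of the Nemo KO arrays (adjusted p up to 0.0827). Rfc5, another loader subunit, was called in Nemo/TNFR1 dKO (0.48 ± 0.08, adjusted p = 0.00437), with uncalled differences of 0.15 in Nemo/TRAIL dKO and 0.21 in Nemo KO. Rfc3, the remaining loader subunit on the list, differed by 0.30, 0.16 and 0.20, and Fen1, the flap endonuclease, by 0.40, 0.25 and 0.28, without a call in either gene.

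Nucleotide supply held both the largest difference and genes that were not called. Rrm2, the small subunit of ribonucleotide reductase that limits deoxynucleotide production in cycling cells, had 8.27, 9.25 and 8.85 in Nemo/TNFR1 dKO, 8.17 and 8.55 in Nemo/TRAIL dKO, 7.89, 8.04 and 8.39 in Nemo KO, and 6.34, 6.15 and 6.49 in WT livers. All 8 Nemo-deficient arrays lay more than 1 log2 unit above all WT arrays. The log2 difference was 2.46 ± 0.23 in Nemo/TNFR1 dKO (adjusted p = 0.000535), 2.03 ± 0.26 in Nemo/TRAIL dKO (0.00236) and 1.78 ± 0.23 in Nemo KO (0.00187), which is 5.51-, 4.10- and 3.43-fold. Rrm1, the large subunit, had 8.39, 8.82 and 8.43 in Nemo/TNFR1 dKO, 8.17 and 8.39 in Nemo/TRAIL dKO, 8.18, 8.18 and 8.34 in Nemo KO, and 7.36, 7.31 and 7.26 in WT livers. It was called higher by 1.24, 0.97 and 0.92 (adjusted p = 0.000508, 0.0028 and 0.00156), and both subunits kept their calls in all 11 fits that left out 1 array, in each of the 3 genotypes.

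The other enzymes of nucleotide supply were not called in Nemo KO livers. Tyms, thymidylate synthase, was called in Nemo/TNFR1 dKO (0.73 ± 0.14, adjusted p = 0.0124), with 0.51 ± 0.16 in Nemo/TRAIL dKO (0.0976) and 0.40 ± 0.14 in Nemo KO (0.123). Dut, the dUTPase that keeps uracil out of DNA, had 7.05, 7.42 and 7.09 in Nemo/TNFR1 dKO, 6.999 and 7.05 in Nemo/TRAIL dKO, 7.16, 6.95 and 7.05 in Nemo KO, and 7.08, 6.82 and 6.89 in WT livers. The Dut groups overlapped with WT, and none was called (0.26, 0.10 and 0.13, adjusted p = 0.195, 0.71 and 0.513). Tk1, the cytosolic thymidine kinase of S phase, was named after its values were seen, and it had 8.25, 8.53 and 7.91 in Nemo/TNFR1 dKO, 8.00 and 8.15 in Nemo/TRAIL dKO, 8.07, 7.93 and 8.02 in Nemo KO, and 8.78, 8.68 and 8.23 in WT livers. The Nemo/TRAIL dKO and Nemo KO arrays lay below all WT arrays, and no difference was called (-0.33, -0.49 and -0.56, adjusted p = 0.291, 0.178 and 0.0764). In Nemo KO against WT this probe set was called lower in 2 of 11 fits lacking 1 array. The second Tk1 probe set differed from WT by -0.29, -0.81 and -0.52, with an adjusted p of 0.29, 0.0179 and 0.0599. By the order of probe set numbers the Tk1 probe set with the higher signal lies among those of chromosome 8 while the gene is on chromosome 11, so which sequence it reads is uncertain.

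**Figure D3:**
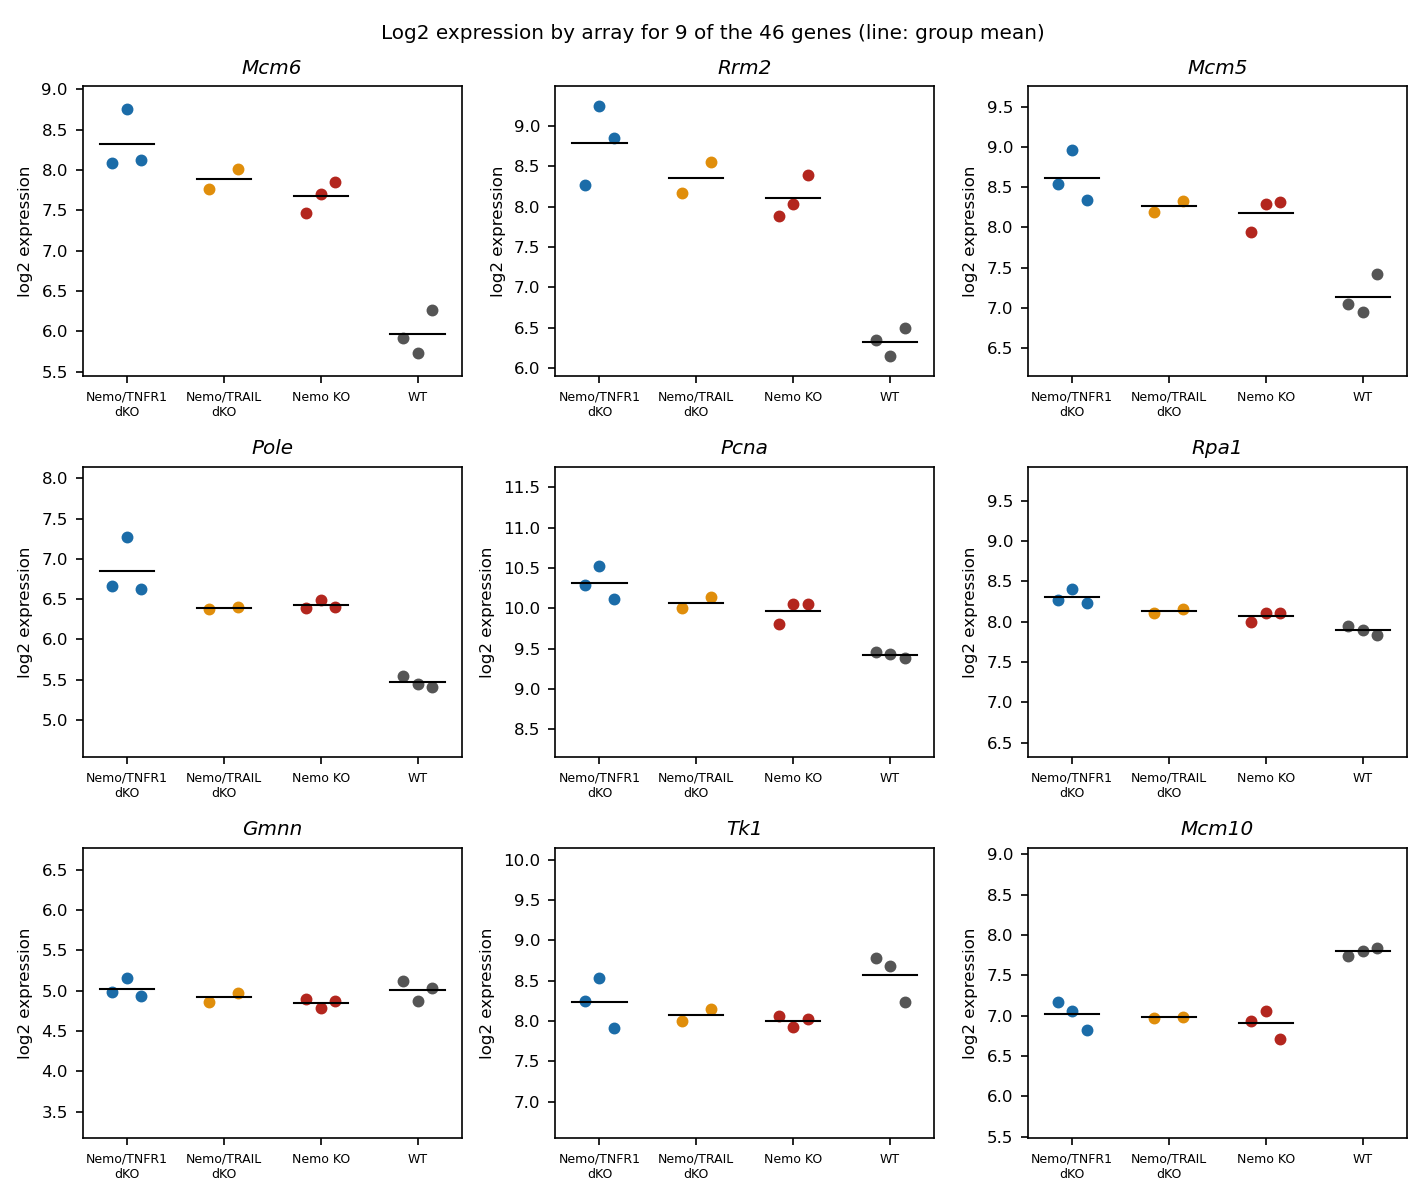
Log2 expression by array (points) with the group mean (line) for 9 of the 46 genes, each panel with its own range on the vertical axis. Mcm6, Rrm2, Mcm5, Pole and Pcna lie above WT in all 3 Nemo-deficient genotypes, Rpa1 by less, Gmnn overlaps with WT, and Mcm10 lies below it.

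All 4 genes that restore chromatin and DNA methylation behind the fork were called higher in each Nemo-deficient genotype. Chaf1b, a subunit of the histone chaperone CAF-1, had 7.15, 7.33 and 7.29 in Nemo/TNFR1 dKO, 6.96 and 7.41 in Nemo/TRAIL dKO, 6.96, 7.04 and 7.23 in Nemo KO, and 6.22, 6.36 and 6.11 in WT livers. The differences were 1.03 ± 0.12 (adjusted p = 0.00136), 0.96 ± 0.14 (0.00411) and 0.84 ± 0.12 (0.0032). Chaf1a, its large subunit, differed by 0.74, 0.52 and 0.51, and both CAF-1 genes kept their calls in all fits that left out 1 array. Uhrf1, which recruits the maintenance methyltransferase to newly copied DNA, had 6.19, 6.73 and 6.58 in Nemo/TNFR1 dKO, 6.36 and 6.08 in Nemo/TRAIL dKO, 6.08, 6.06 and 6.31 in Nemo KO, and 5.48, 5.47 and 5.34 in WT livers. It was called by 1.07, 0.78 and 0.71, and lost its Nemo KO call without Nemo KO replicate 3 (adjusted p = 0.0536). Dnmt1, that methyltransferase, had 7.92, 8.26 and 8.10 in Nemo/TNFR1 dKO, 8.06 and 7.89 in Nemo/TRAIL dKO, 7.87, 8.00 and 7.95 in Nemo KO, and 7.62, 7.54 and 7.41 in WT livers. Its differences were 0.57, 0.45 and 0.42 (adjusted p = 0.00656, 0.0376 and 0.0288). The Nemo KO call was lost without WT replicate 2 or 3 or any 1 of the Nemo KO arrays (adjusted p up to 0.0995). Its Nemo/TRAIL dKO call was also lost in fits without WT replicate 2 or 3.

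None of the 3 repair genes that act at damaged forks was called in Nemo KO or Nemo/TRAIL dKO livers. Exo1, an exonuclease, had 5.54, 5.97 and 5.68 in Nemo/TNFR1 dKO, 5.49 and 5.57 in Nemo/TRAIL dKO, 5.51, 5.50 and 5.67 in Nemo KO, and 4.99, 5.27 and 5.39 in WT livers. Its difference was called in Nemo/TNFR1 dKO (0.52 ± 0.13, adjusted p = 0.0362), where the call survived 3 of 11 fits lacking 1 array (adjusted p up to 0.109), with 0.32 in Nemo/TRAIL dKO and 0.35 in Nemo KO. Brca1, which acts in repair by homologous recombination, had 5.78, 6.37 and 5.84 in Nemo/TNFR1 dKO, 5.69 and 5.66 in Nemo/TRAIL dKO, 5.58, 5.78 and 5.69 in Nemo KO, and 5.39, 5.48 and 5.29 in WT livers. It was called in Nemo/TNFR1 dKO (0.61 ± 0.14, adjusted p = 0.0265), lost without any 1 of the WT arrays (adjusted p up to 0.0765), and not in Nemo/TRAIL dKO (0.29) or Nemo KO (0.29). Brca2, which loads the recombinase, had 6.16, 6.54 and 6.18 in Nemo/TNFR1 dKO, 6.33 and 6.26 in Nemo/TRAIL dKO, 6.16, 6.16 and 6.04 in Nemo KO, and 5.99, 5.99 and 6.16 in WT livers, with no call (0.25, 0.25 and 0.08, adjusted p = 0.187, 0.272 and 0.679).

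The double knockouts were compared with the same 3 WT arrays, so their results are given side by side and are not independent of the Nemo KO result. In Nemo/TNFR1 dKO 32 of the 46 genes were called higher and 1 lower, where 5.83% of all probe sets were called higher and 3.35% lower. In Nemo/TRAIL dKO 23 were called higher and 1 lower, where 4.91% of all probe sets were called higher and 2.64% lower. The median log2 difference from WT of the 46 genes was 0.58 in Nemo/TNFR1 dKO, 0.41 in Nemo/TRAIL dKO and 0.41 in Nemo KO. Without overlap with WT, all arrays were higher in 38 genes in Nemo/TNFR1 dKO (11.6% of all probe sets) and in 34 in Nemo/TRAIL dKO (14.7%). In all 3 genotypes 22 genes were called higher and Mcm10 was called lower, 4 genes (Cdc6, Rfc4, Pola1 and Pold1) were called in exactly 2, and 13 were called in none. The share of all probe sets called higher in all 3 was not counted. It can be no larger than the 4.91% called higher in Nemo/TRAIL dKO. The shares called in exactly 2, in none or in Nemo/TNFR1 dKO alone were not counted either. The 6 genes called in Nemo/TNFR1 dKO and in neither other genotype were Gins1, Rfc5, Rpa1, Tyms, Exo1 and Brca1, and none of them was called different between Nemo/TNFR1 dKO and Nemo KO.

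How many genes were called depended on the arrays of the smallest group. Without Nemo/TRAIL dKO replicate 1 the count of called genes in Nemo/TRAIL dKO against WT was 6 instead of 24, and without replicate 2 it was 10. Each of these fits leaves 1 array in that group, which is then assumed to vary like the other groups. The calls of Mcm6, Rrm2, Rrm1, Chaf1a, Chaf1b and Mcm10 held in all 11 fits of that comparison, and those of the other 18 genes did not. Without WT replicate 2 the count was 16. The median difference of the 46 genes was 0.37 without Nemo/TRAIL dKO replicate 1 and 0.39 without replicate 2. In Nemo/TNFR1 dKO against WT 29 calls held in all 11 fits, and the count ranged between 30 and 33. Without WT replicate 3, the array with the acinar signal, the count was 31 in Nemo/TNFR1 dKO and 20 in Nemo/TRAIL dKO.

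To ask whether loss of TNFR1 or TRAIL alters these genes on top of Nemo loss, each double knockout was compared with Nemo KO. The array code differs between these groups too, so it cannot be told apart from the added loss. No member was called in Nemo/TNFR1 dKO against Nemo KO, where 0.0337% of all probe sets were called, and the lowest adjusted p of a member was 0.504. The differences nevertheless leaned one way: 44 of the 46 genes lay above 0, as did 53.9% of all probe sets, with a median of 0.17 against 0.01 over all probe sets. An unadjusted p below 0.05 was reached by 15 members, all higher, as by 3.25% of all probe sets, and in 17 members every Nemo/TNFR1 dKO array lay above every Nemo KO array (6.6% of all probe sets). The largest differences were those of Rrm2 (0.68 ± 0.23, adjusted p = 0.619), Mcm6 (0.65 ± 0.20, 0.55), Mcm5 (0.44 ± 0.18, 0.707) and Pole (0.43 ± 0.15, 0.619). For Mcm6 the 3 Nemo/TNFR1 dKO arrays lay above the 3 Nemo KO arrays, and for Rrm2 the groups overlapped. Cdc6 and Prim2 were the 2 members below 0 (-0.04 and -0.07).

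**Figure D4:**
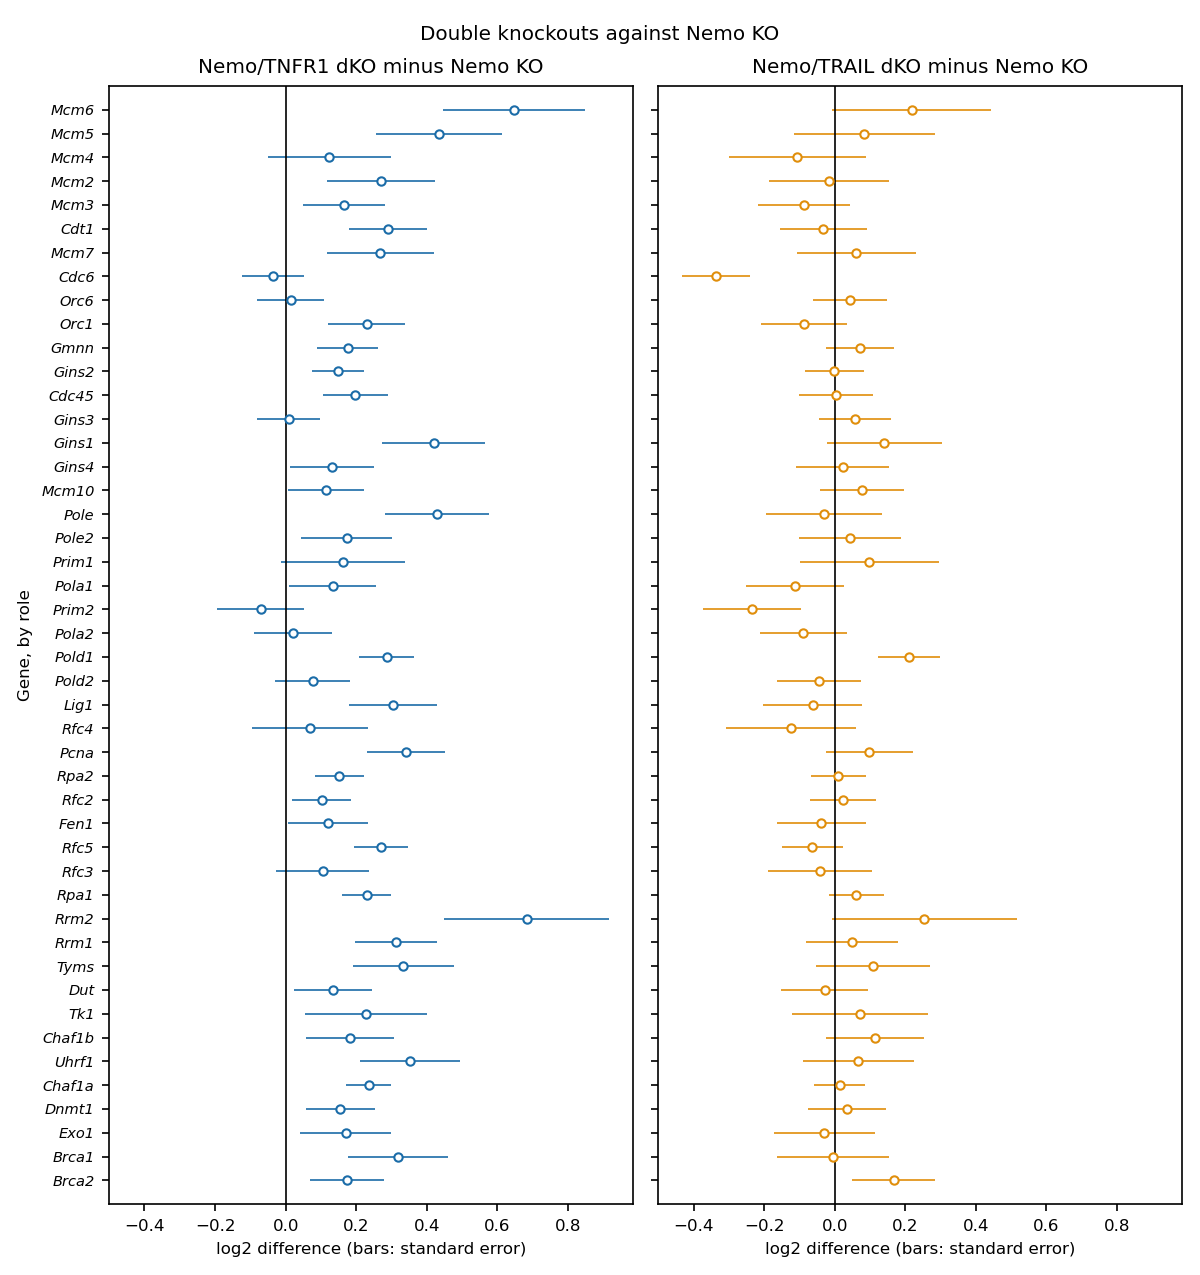
Log2 difference of each double knockout from Nemo KO (horizontal axis, bars are standard errors) for the 46 genes, ordered by role, with all points open because none reached an adjusted p below 0.05. On the left (Nemo/TNFR1 dKO) 44 of the 46 points lie above 0, and on the right (Nemo/TRAIL dKO) 26 do.

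A single array was the highest for most of the genes. Nemo/TNFR1 dKO replicate 2 was the highest of the 11 arrays for 35 of the 46 genes, and the mean log2 level of the 46 genes was 7.20, 7.49 and 7.23 on the 3 Nemo/TNFR1 dKO arrays, 7.09 and 7.13 on the Nemo/TRAIL dKO arrays, 7.01, 7.12 and 7.15 on the Nemo KO arrays and 6.68, 6.60 and 6.63 on the WT arrays. Without that array the median difference from Nemo KO was 0.10 and 39 of the 46 genes lay above 0. The other 2 Nemo/TNFR1 dKO arrays still had the next highest means. The difference of Nemo/TNFR1 dKO from WT had a median of 0.50 without it, with 31 genes called.

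In Nemo/TRAIL dKO livers the differences from Nemo KO lay around 0. No member was called in Nemo/TRAIL dKO against Nemo KO, where 0.00562% of all probe sets were called, the median difference was 0.02 and 26 of the 46 genes lay above 0, against 51.0% of all probe sets. An unadjusted p below 0.05 was reached by 2 members, Cdc6 (-0.34 ± 0.10, unadjusted p = 0.00651) and Pold1 (0.21 ± 0.09, unadjusted p = 0.0382), against 4.04% of all probe sets. Both had an adjusted p of 1. The other large differences were those of Rrm2 (0.25), Prim2 (-0.23) and Mcm6 (0.22). Without Nemo KO replicate 1 the median was -0.02, with 20 genes above 0.

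Between the double knockouts, which differ in array code as well as genotype, no member was called in Nemo/TNFR1 dKO against Nemo/TRAIL dKO, where 0.0478% of all probe sets were called. The median difference was 0.19, and 44 of the 46 genes lay above 0, as did 52.5% of all probe sets. An unadjusted p below 0.05 was reached by 7 members, all higher, as by 2.56% of all probe sets, and in 16 members all Nemo/TNFR1 dKO arrays lay above both Nemo/TRAIL dKO arrays (9.59%). The largest differences were those of Pole (0.46 ± 0.16, adjusted p = 0.912), Mcm6 (0.43 ± 0.23), Rrm2 (0.43 ± 0.26) and Lig1 (0.37 ± 0.14, adjusted p = 0.932). Without Nemo/TNFR1 dKO replicate 2 the median was 0.11 and 40 genes lay above 0.

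Levels of most of the genes went along with the helicase ring from array to array. Pearson's r of each gene with the mean of Mcm2 to Mcm7 over the 11 arrays had a median of 0.907, was above 0.8 for 31 of the 46 genes and below 0 for 4, Mcm10 (-0.861), Pold2 (-0.659), Tk1 (-0.56) and Gmnn (-0.0446). Each ring gene was left out of the mean it was compared with, and the arrays share the differences between genotypes. Computed on deviations from each genotype's mean, r had a median of 0.546, was above 0.5 for 27 genes and below 0 for 2, Orc1 and Pold2. Within genotypes Gmnn (0.543) and Prim2 (0.797) correlated with the ring although their difference from WT was not called, and Chaf1a (0.175) and Chaf1b (0.208), which were called in all 3 genotypes, had low correlations with it. These values describe 11 arrays that share a normalization, and no test was run on them. The ring genes are themselves among the 46, and the share of all probe sets with such an r was not counted. Nemo/TNFR1 dKO replicate 2 was the highest array of its genotype for 40 of the 46 genes, Gmnn and Prim2 among them. How far this array carries the correlations within genotypes was not tested.

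Other genes of the same processes were taken from lists by name. Of 41 further replication factors 8 were called higher and none lower in Nemo KO against WT (median 0.10), where 6.08% of all probe sets were called higher and 3.21% lower: Top2a, the topoisomerase that untangles copied DNA (1.84 ± 0.24, adjusted p = 0.00195), Dbf4, which activates the kinase that fires origins (1.68 ± 0.21, 0.00165), Asf1b, a histone chaperone (1.18 ± 0.17, 0.00305), Mms22l (0.83 ± 0.14, 0.00581), Topbp1, Rnaseh2b, Ticrr and Chtf8. The calls of Topbp1, Ticrr and Chtf8 survived 5, 4 and 1 of 11 fits lacking 1 array. The other 33 factors were not called in Nemo KO, and 14 of the 41 lay below 0. Among those not called, the origin recognition subunits Orc2, Orc3, Orc4 and Orc5 differed by 0.03, -0.14, 0.05 and -0.17. In the same list 9 were called higher in Nemo/TNFR1 dKO and 5 in Nemo/TRAIL dKO, and none lower in either. Of 27 measured genes elsewhere in nucleotide metabolism 2 were called higher in Nemo KO, Ctps2, a CTP synthase (0.75), and Samhd1, which breaks down deoxynucleotides (0.59), and 3 were called lower, Uck2, a uridine kinase (-0.72), Shmt1 (-0.60) and Mthfd1 (-0.46), both of folate metabolism. The Mthfd1 call survived 7 of 11 fits lacking 1 array. The median of that list was 0.02.

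Among the regulators, 3 of 13 E2F, DP and pocket protein genes were called higher in Nemo KO and 1 lower. Rbl1, the pocket protein p107, was higher by 1.13 ± 0.17 (adjusted p = 0.00329), E2f1, an activating E2F, by 0.78 ± 0.20 (0.0429) and E2f3 by 0.33 ± 0.09 (0.0472), whereas Rbl2, the pocket protein p130 of quiescent cells, differed by -0.59 ± 0.11 (0.00833). E2f1 and Rbl1 were also called higher, and Rbl2 lower, in both double knockouts, and E2f6, a repressive E2F, was called lower in Nemo/TNFR1 dKO (-0.53 ± 0.10, adjusted p = 0.0108). The E2f1 and E2f3 calls in Nemo KO survived 3 and 1 of 11 fits lacking 1 array.

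Of 6 measured cyclins and mitotic genes 5 were called higher in each Nemo-deficient genotype, and the median difference was 2.40 in Nemo/TNFR1 dKO, 2.20 in Nemo/TRAIL dKO and 2.23 in Nemo KO. Ccna2, the cyclin of S and G2 phase, differed from WT by 3.07, 3.07 and 3.22 in that order, and Plk1, a mitotic kinase, by 2.77, 2.85 and 2.84. Mki67 and Aurkb lay between 1.75 and 2.74 in the 3 genotypes, Ccne1 between 0.67 and 0.73, and Ccne2 was not called (0.70, 0.69 and 0.59). Of 4 measured linker histone genes none was called in Nemo KO, H1f5 was called in Nemo/TNFR1 dKO (0.72) and H1f3 in Nemo/TRAIL dKO (0.59).

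**Figure D5:**
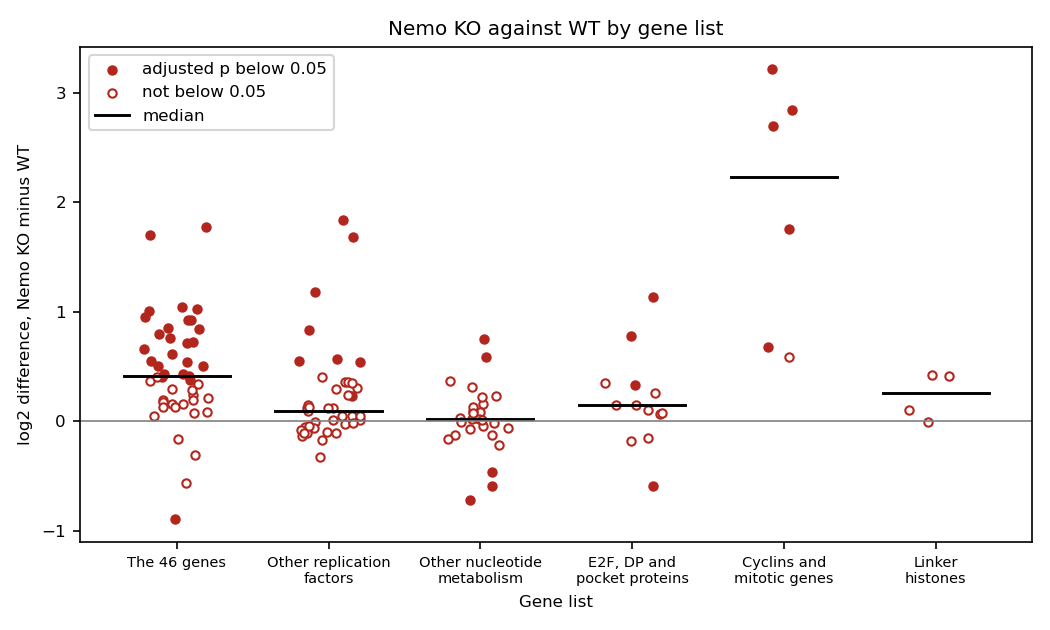
Log2 difference between Nemo KO and WT livers (vertical axis) of each measured gene (points, filled at an adjusted p below 0.05) in 6 gene lists, with the median of each list as a line. The 46 genes have a median of 0.41, other replication factors 0.10 and the cyclins and mitotic genes 2.23.

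Macrophage and stellate cell markers were higher in the same livers. Of 8 macrophage and leukocyte markers 5, 5 and 6 were called higher in Nemo/TNFR1 dKO, Nemo/TRAIL dKO and Nemo KO, and their mean log2 level lay between 8.61 and 8.99 on the Nemo-deficient arrays and between 7.88 and 8.04 on the WT arrays. Of 6 stellate cell markers 5, 4 and 5 were called higher, with a mean between 9.18 and 9.64 on the Nemo-deficient arrays and between 8.09 and 8.66 on the WT arrays. Among 8 lymphocyte markers 2, 1 and 1 were called higher, with a mean between 5.81 and 6.16 on the Nemo-deficient arrays and between 5.66 and 5.83 on the WT arrays. In 4 cholangiocyte markers 0, 1 and 0 were called higher, with a mean between 6.71 and 7.31 on the Nemo-deficient arrays and between 6.48 and 6.78 on the WT arrays. Erythroid markers (5 measured) had 1, 0 and 2 called lower, with a mean between 6.10 and 6.40 on the Nemo-deficient arrays and between 6.49 and 6.81 on the WT arrays. Of 5 endothelial markers 1, 2 and 0 were called higher, and Kdr was called lower in Nemo/TRAIL dKO, with a mean between 9.06 and 9.27 on the Nemo-deficient arrays and between 9.01 and 9.05 on the WT arrays. None of the 8 acinar markers was called. The part of these cells in the replication result was not tested.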

How the data were processed

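Liver RNA samples (11, with 100 ng of total RNA each) were run on 11 Affymetrix MOGENE-1_0-ST-V1 arrays. The authors deposited log2 values for 35556 probe sets, computed with RMA per the submitters' processing notes. The sources used here name no RMA version. The values were used as they stand. The array medians lay between 6.26 and 6.32. Some values were identical on several arrays, such as 7.3322 for Gins2 and 7.9806 for Rfc4. Between an array and the one most correlated with it, 643 to 1128 probe sets had identical values. How this affects the spread was not tested. With limma 3.58.1 in R 4.3.3, 1 mean per genotype was fitted to all arrays and probe sets (7 residual and 2.51 prior degrees of freedom). Tests are two-sided, adjusted by Benjamini-Hochberg over all probe sets within each of 6 comparisons, and called at an adjusted p below 0.05. Nothing in the labels says how the mice of a group were related, so the p-values reflect no more than the spread among these samples. The few arrays limit precision: the median standard error was 0.102, or 0.114 where the group of 2 is involved. Genes shown with every array are, per role, the 2 largest and the 1 smallest differences in Nemo KO against WT, and the 4 largest in each comparison among Nemo-deficient genotypes. The genes, lists and naming rule were chosen with earlier results of these data known. Linker histone symbols were updated through RefSeq synonyms. The model was also run on simulated data with independent normal errors and known changes. These data did not hold identical values across arrays, so the run does not show how such values affect the spread. No pairing by replicate number was seen: deviations of same-numbered arrays correlated between -0.117 and 0.0435 over 15 pairs. Differently numbered arrays were not compared in this way, so a weak pairing could go unseen.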

Additional observations from a re-analysis of the deposited data

How the results depend on the processing

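The counts of the 46 genes called against WT were recomputed with quantile normalization or median centring, a variance trend or robust moderation, a filter at the median signal, only the 2 groups compared, the replicate number as a block, a threshold of 1.5-fold, the other probe set of Pcna and Tk1, and each array left out in turn. In Nemo KO against WT the count was 26, with 17 at 1.5-fold, 21 with the signal filter, 25 from the 2 groups alone, 23 with the replicate block, and between 17 and 27 when 1 array was left out. Of the 26 genes 1 was called lower. The number called lower was 2 with quantile normalization, with the signal filter, and without WT replicate 3 or Nemo/TNFR1 dKO replicate 3. In Nemo/TRAIL dKO against WT the count was 24, with 17 at 1.5-fold, 19 with the signal filter, 16 from the 2 groups alone, 18 with the replicate block, and between 6 and 25 when 1 array was left out. In Nemo/TNFR1 dKO against WT the count was 33, with 23 at 1.5-fold, 24 with the signal filter, 28 from the 2 groups alone, 32 under the replicate block, and between 30 and 33 when 1 array was left out. No gene was called in the other 3 comparisons under any of these settings. No pairing by replicate number was seen, so the block is only a check. The direction of some uncalled genes turned, for causes that were not tested. When 1 array was left out, Orc1 lay between -0.0279 and 0.0871 in Nemo KO against WT and between -0.1804 and 0.0988 in Nemo/TRAIL dKO against WT, and Gins4 between -0.0638 and 0.2793 in Nemo/TRAIL dKO against WT. With quantile normalization Orc1 was at 0.021 in Nemo/TRAIL dKO against WT. The filter at the median signal left 32 of the 46 genes, Orc1 not among them.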
